A study of Mus musculus with 12 samples.

Results

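The genes described here are 38 interferon-stimulated antiviral genes of the mouse, taken by name from a list that left out the Gbp, Irg and Ifi200 families and the STAT and IRF factors. They were 38 of the 39179 Ensembl gene IDs counted in each library, and 37 of them had enough counts to be among the 12189 genes tested. RNA was sequenced from OT-II CD4 T cells, whose transgenic receptor recognises an ovalbumin peptide, in 4 groups of 3 libraries. The naive cells came from lymph nodes and spleen. Th1 KO cells came from mice of the strain OT-II x NKG2D-/-, which lack NKG2D, an activating receptor encoded by Klrk1, and were sorted as Thy1.1+. Th1 WT cells came from mice of the strain C57BL/6 x OT-II and were sorted as Thy1.2+ and NKG2D+. Both had been grown together with antigen-presenting cells, peptide and an antibody to CD28, with IL-2, IL-12 and an antibody to IL-4. Th17 KO and Th17 WT cells differed from each other in the same way and had been grown with IL-1b, IL-6, IL-23 and antibodies to interferon gamma and IL-4. IL-12 was added to the Th17 cultures at the later stimulation, and all cells were collected on day 8. Because KO and WT cells also differ in the NKG2D gate and in the Thy1 allele, the effects of these and of genotype cannot be told apart. No label says whether the 3 libraries of a group came from separate mice or cultures, so p-values measure the spread between these libraries only.

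Interferons are cytokines that put cells into an antiviral state. Interferon alpha and beta bind the IFNAR1 and IFNAR2 receptor chains, and the kinases JAK1 and TYK2 then activate STAT proteins, which join IRF9 to form a complex that binds interferon-stimulated response elements (ISRE) in promoters. Interferon gamma, the main cytokine of Th1 cells, signals through IFNGR1 and IFNGR2 to STAT dimers, which bind gamma-activated sites (GAS). The induced genes encode sensors of foreign nucleic acid, enzymes that block viral RNA and protein synthesis, and proteins that restrain the pathway, and T cells carry many of their transcripts without infection.

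Klrk1, the targeted gene, was at 5.58, 5.63 and 3.31 counts per 1e6 counts (CPM) in Th1 KO and at 161, 158 and 128 CPM in Th1 WT, and at 3.35, 2.10 and 1.60 CPM in Th17 KO and 130, 141 and 133 CPM in Th17 WT. It was lower in every KO library. Thy1, whose 2 alleles served to sort the genotypes, had log2 fold changes of KO over WT of -0.12 in Th1 (adjusted p = 0.716) and -0.35 in Th17 (adjusted p = 0.169). CPM values here are normalised with TMM factors, which correct each library total for its composition. Library totals were between 9108203 and 12688637 counts in 9 libraries, whereas Th17 KO library 2 had 1722228, Th17 WT library 2 had 2731909 and Th17 WT library 3 had 1647232. In these 3 shallow libraries 1 gene ID, ENSMUSG00000045999, took 51.0%, 18.3% and 48.1% of counts, against at most 0.00831% elsewhere. Summed levels of 6 CD4 T cell markers were between 8677 and 10279 CPM in all libraries. They were 8967 to 9574 CPM in Th1 KO and 9357 to 10062 CPM in Th1 WT, which overlapped. In Th17 KO they were 8677 to 8896 CPM and in Th17 WT 9214 to 10279 CPM, which did not overlap. Markers of other cells were low throughout. The CD8 T cell markers Cd8a and Cd8b1 summed to 2.08 to 2.74 CPM in Th1 KO and 2.84 to 3.70 CPM in Th1 WT, which did not overlap, and to 3.15 to 5.14 CPM in Th17 KO and 1.04 to 6.61 CPM in Th17 WT. The 4 NK cell markers summed to at most 1.05 CPM with Ncr1 at 0 in every library, and the 7 markers of macrophages, monocytes and dendritic cells to between 4.51 and 9.45 CPM.

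Promoters of the listed genes held the ISRE letters more often than promoters in general. RefSeq windows of GRCm38.p6, from 250 bases before to 50 after a transcription start, were found for 28 of the 38 genes. There was none for Usp18, Zbp1, Oas2, Mx1, Dhx58, Rtp4, Parp9, Parp14, Ifi27l2a and Nlrc5. An ISRE was searched on both strands as the letters GAAA, any 2 bases, and GAAA again. It stood in 12 of the 28 (42.9%) and in 3.99% of the 27025 genes with a window. These were Isg15, Ifit1, Ifit3, Oas1a, Oas3, Rsad2, Ifih1, Ddx58, Trim30a, Eif2ak2, Bst2 and Shisa5. With C required as the next letter the shares were 32.1% and 0.944%. A GAS, searched as TTCNNNGAA, which reads the same on both strands, stood in 8 of the 28 (28.6%), against 9.55% of all genes. Matches may overlap each other, as the 3 ISRE matches of Isg15 do, and a match is a description of letters and not of binding. The windows of Adar and Shisa5 lie at starts inside the annotated gene.

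The 160 bases before the start are shown for genes that the comparisons turn on or that carry repeated matches. They are written 5' to 3' on the gene's strand with ISRE and GAS matches in capitals, and an ISRE on the other strand reads TTTC, any 2 bases, TTTC. Isg15 (chr4:156200819-156200978, minus strand), Ifit1 (chr19:34640729-34640888, plus strand), Ifit3 (chr19:34583369-34583528, plus strand), Bst2 (chr8:71537473-71537632, minus strand) and Oas1a (chr5:120907526-120907685, minus strand) have 2 or more matches. The Bst2 and Oas1a stretches hold a GAS as well.
Isg15: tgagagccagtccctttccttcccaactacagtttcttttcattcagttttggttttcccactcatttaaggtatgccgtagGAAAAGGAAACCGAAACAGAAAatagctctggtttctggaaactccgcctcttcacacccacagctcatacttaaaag
Ifit1: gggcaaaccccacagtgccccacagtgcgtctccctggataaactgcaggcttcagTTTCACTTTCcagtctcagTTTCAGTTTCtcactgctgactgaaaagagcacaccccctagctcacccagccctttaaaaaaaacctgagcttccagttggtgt
Ifit3: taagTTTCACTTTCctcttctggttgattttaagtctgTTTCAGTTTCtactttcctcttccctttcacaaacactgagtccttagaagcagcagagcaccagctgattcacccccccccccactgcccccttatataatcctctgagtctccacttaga
Bst2: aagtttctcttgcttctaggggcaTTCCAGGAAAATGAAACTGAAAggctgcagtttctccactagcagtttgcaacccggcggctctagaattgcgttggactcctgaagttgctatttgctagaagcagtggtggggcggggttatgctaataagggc
Oas1a: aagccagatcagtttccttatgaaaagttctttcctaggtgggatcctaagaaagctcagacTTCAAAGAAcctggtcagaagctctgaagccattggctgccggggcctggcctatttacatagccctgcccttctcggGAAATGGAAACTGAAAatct
Trim30a (chr7:104465194-104465353, minus strand), Cd274 (chr19:29367278-29367437, plus strand) and Tap1 (chr17:34187396-34187555, plus strand) were all lower in Th1 KO cells. Trim30a alone of these has the ISRE letters, close to its start, and the Cd274 and Tap1 stretches have no match to either motif.
Trim30a: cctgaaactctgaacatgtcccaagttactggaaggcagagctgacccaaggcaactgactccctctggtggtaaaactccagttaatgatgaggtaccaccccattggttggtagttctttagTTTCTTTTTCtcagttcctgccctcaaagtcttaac
Cd274: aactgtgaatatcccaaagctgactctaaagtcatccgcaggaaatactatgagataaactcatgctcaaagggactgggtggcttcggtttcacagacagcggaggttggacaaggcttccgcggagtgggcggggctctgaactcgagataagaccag
Tap1: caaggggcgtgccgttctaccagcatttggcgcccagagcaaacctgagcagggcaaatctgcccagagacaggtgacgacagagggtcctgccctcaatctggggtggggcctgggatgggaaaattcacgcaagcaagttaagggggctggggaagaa

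In Th1 cells 10 of the 37 tested genes were lower in KO than in WT, and these were Usp18, Zbp1, Ifit2, Trim30a, Parp9, Dtx3l, Sp100, Cd274, Tap1 and Nlrc5. None was higher at an adjusted p under 0.05 in edgeR's quasi-likelihood test. The 10 genes are 27% of the tested members, against 2.92% of all 12189 genes lower and 1.69% higher. The differences were between 1.22-fold and 3.62-fold. Calls in the higher direction were also 0 at an unadjusted p under 0.05, against 7.09% of all genes, and with DESeq2 and limma-voom. Calls in the lower direction were 17 at an unadjusted p under 0.05, against 9.53% of all genes, 10 with DESeq2 and 13 with limma-voom. In bulk RNA fewer cells that use a gene and less RNA per cell cannot be told apart.

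The shift was broad but small. Of the 37 genes 33 had a log2 fold change below 0, with a median of -0.27, while over all genes the median was -0.00 and 50.6% were below 0. The member median was -0.17 without Th1 WT library 3, the smallest shift with 1 library left out, and -0.33 without Th1 KO library 3, the largest. Of the 27 genes that did not pass, 23 were below 0. CPM ranges of the groups did not overlap, with KO lower, for 16 of the 37, against 13.4% of all genes, and for 0 of the 37 with KO higher, against 11.1%. The Th1 cell markers Tbx21, Ifng and Cxcr3 summed to 604 to 836 CPM in Th1 KO and 730 to 995 CPM in Th1 WT, which overlapped. Their log2 fold changes ran from -0.42 to 0.76, and none passed. Groups did not overlap for 1 of the 3 with KO higher and for 1 with KO lower. The CD8 T cell markers given above were lower in Th1 KO libraries. The part of either list in the shift was not tested. For a single gene, an exact permutation test of 3 libraries against 3 gives a p of 0.1 at the least.

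**Figure D1:**
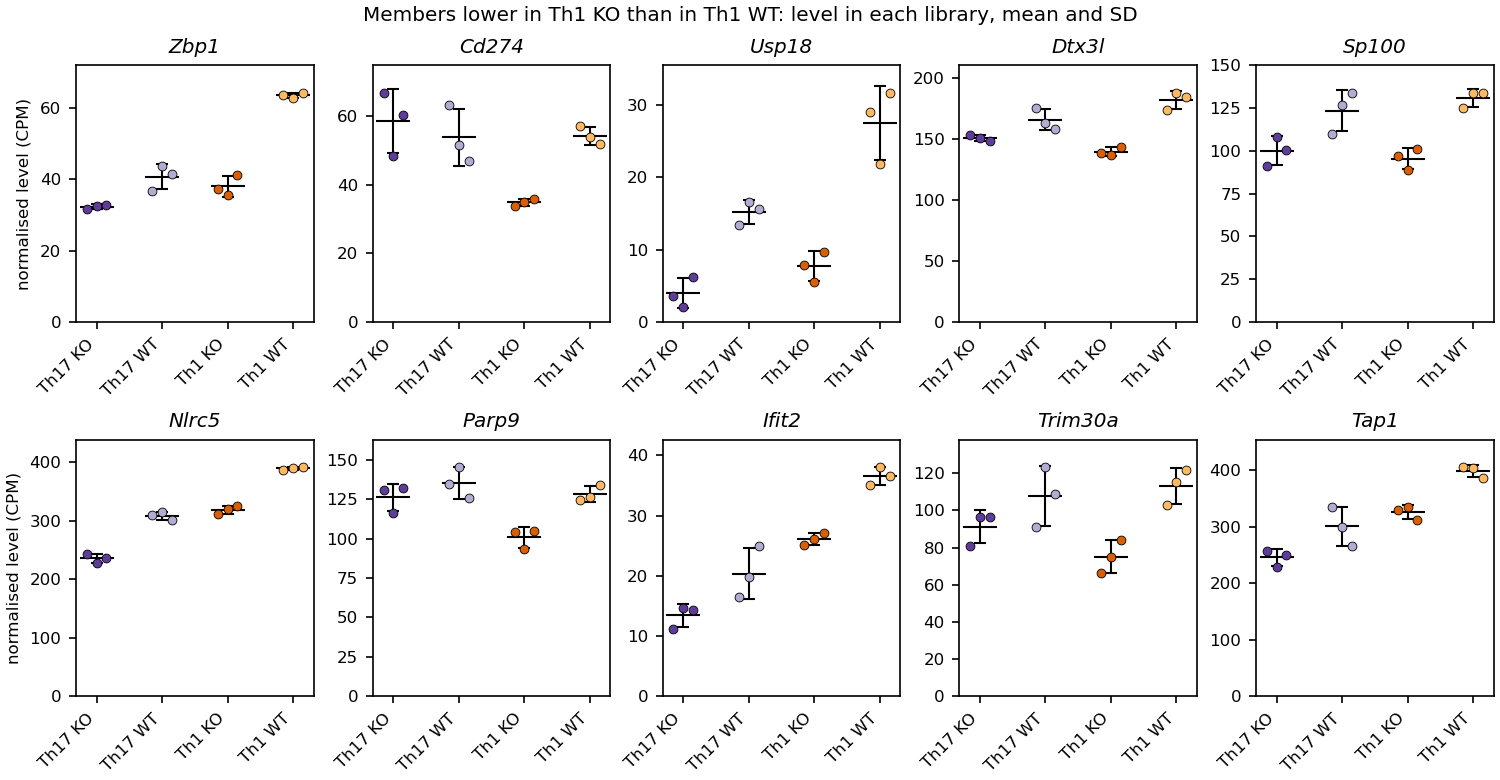
The 10 genes lower in Th1 KO than in Th1 WT. The vertical axis is the TMM-normalised level in CPM, each point is 1 library, and bars show the mean and SD of 3 libraries in Th17 KO, Th17 WT, Th1 KO and Th1 WT. Th1 KO points lie below all Th1 WT points in every panel, and for Trim30a, Parp9 and Cd274 the Th17 KO and Th17 WT points overlap.

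Of the 4 genes of the ISG15 system 1 passed, Usp18, and its difference was the largest of the 37 genes. Usp18 (ENSMUSG00000030107, chromosome 6, 121245906 to 121270917, plus strand, GRCm38) encodes the protease that removes the ubiquitin-like protein ISG15 and holds back signalling at IFNAR2. Its level was 7.84, 5.56 and 9.69 CPM in Th1 KO, against 29.1, 21.9 and 31.7 CPM in Th1 WT. The highest KO library was below the lowest WT library, and the log2 fold change was -1.85 with a standard error (SE) of 0.20 (adjusted p = 8.89e-05). Usp18 lies 8.34 Mb from Klrk1 on the same chromosome. Of 9 tested genes within 1 Mb of Usp18 none passed in Th1, whereas Il17ra was lower in Th17 KO. Isg15 itself was at 2.65, 3.68 and 3.63 CPM in Th1 KO and at 2.61, 3.06 and 4.79 CPM in Th1 WT, and these ranges overlapped (log2 fold change -0.06, SE 0.25). The ISG15 ligases Herc6 and Trim25 had log2 fold changes of -0.27 (SE 0.10) and 0.02 (SE 0.09), which did not pass.

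Among the nucleic acid sensors and RNA enzymes 1 of 6 passed. Zbp1 (ENSMUSG00000027514, chromosome 2, 173206612 to 173218923, minus strand), a sensor of Z-form nucleic acid that can start necroptosis, had 37.3, 35.6 and 41.3 CPM in Th1 KO, against 63.7, 62.8 and 64.3 CPM in Th1 WT. All KO libraries were below all WT libraries, with a log2 fold change of -0.74 (SE 0.07, adjusted p = 1.03e-07). The RNA helicases Ifih1 (MDA5), Ddx58 (RIG-I) and Dhx58 (LGP2) had log2 fold changes of -0.15, -0.14 and 0.08. Eif2ak2, the RNA-activated kinase PKR, stood at -0.11, and Adar, an adenosine deaminase of double-stranded RNA, at -0.03. None of these 5 passed.

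Of the IFIT and OAS families 1 of 7 tested genes passed. Ifit2 (ENSMUSG00000045932, chromosome 19, 34550694 to 34576419, plus strand), one of the tetratricopeptide proteins that bind viral RNA or block translation, had 25.1, 26.1 and 27.1 CPM in Th1 KO, against 35.1, 38.1 and 36.6 CPM in Th1 WT. The ranges were apart and the log2 fold change was -0.49 (SE 0.09, adjusted p = 0.00139). Its family members were less abundant and more scattered. Ifit1 had 3.59, 5.21 and 8.56 CPM in Th1 KO and 5.51, 12 and 12.3 CPM in Th1 WT (log2 fold change -0.77, SE 0.38, adjusted p = 0.366). Ifit3 had 0.567, 1.04 and 1.05 CPM in Th1 KO and 1.31, 3.37 and 1.87 CPM in Th1 WT (log2 fold change -1.25, SE 0.38, adjusted p = 0.0596). The groups overlapped for Ifit1 and were apart for Ifit3. Ifit1 and Ifit3 have related genes in the mouse, as do Oas1a, Trim30a and Ifi27l2a. How far reads are shared with these was not tested, so their counts are uncertain. The oligoadenylate synthetases, which activate RNase L, were close to 0: Oas1a -0.24, Oas2 0.02, Oas3 -0.06 and the related Oasl2 -0.01 on the log2 scale.

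Of the 9 other effectors 1 passed. Trim30a (ENSMUSG00000030921, chromosome 7, 104409025 to 104465193, minus strand), a tripartite motif protein that restrains inflammatory signalling in mouse cells, had 66.2, 75.0 and 84.1 CPM in Th1 KO, against 103, 115 and 122 CPM in Th1 WT. Every KO value was below every WT value, and the log2 fold change was -0.59 (SE 0.11, adjusted p = 0.00602). Of the 10 tested genes within 1 Mb of it 4 were also lower, all members of its own gene family: Trim12a, Trim12c, Trim30d and Trim5. The other 8 effectors did not pass and had log2 fold changes between -0.39 for Rsad2, the radical enzyme viperin, and 0.03 for Bst2, the virion-tethering protein tetherin. Xaf1, a pro-apoptotic protein, was the nearest to the threshold with 15.8, 18 and 21.5 CPM in Th1 KO and 24.0, 25.2 and 23.0 CPM in Th1 WT. Its groups did not overlap (log2 fold change -0.38, SE 0.12, adjusted p = 0.0806). Mx1, the GTPase whose common laboratory-strain alleles make no working protein, was at -0.31.

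Of the 3 ADP-ribosylation genes 2 were lower in Th1 KO. Parp9 (ENSMUSG00000022906, chromosome 16, 35938470 to 35972605, plus strand) and Dtx3l (ENSMUSG00000049502, chromosome 16, 35926511 to 35939151, minus strand) encode partners in a ubiquitin ligase complex. They overlap in their exons on opposite strands, and the library kit does not mark strand, so reads in the overlap cannot be assigned. Parp9 had 104, 93.5 and 105 CPM in Th1 KO, against 125, 126 and 134 CPM in Th1 WT (log2 fold change -0.35, SE 0.07, adjusted p = 0.00129). Dtx3l had 139, 138 and 144 CPM in Th1 KO, against 174, 188 and 184 CPM in Th1 WT (log2 fold change -0.38, SE 0.06, adjusted p = 0.00013). Neither gene had overlapping groups. Parp14, a mono-ADP-ribosyltransferase, had 91.5, 98.2 and 108 CPM in Th1 KO and 109, 114 and 125 CPM in Th1 WT. Its ranges were apart by little and it did not pass (log2 fold change -0.22, SE 0.07, adjusted p = 0.0855).

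All 4 genes grouped here under antigen presentation, checkpoint and nuclear bodies were lower in Th1 KO. The group joins genes of different function. Of 14 antigen presentation genes outside the 38, 4 were lower (28.6%, against 2.92% of all genes). Cd274 (ENSMUSG00000016496, chromosome 19, 29367455 to 29388095, plus strand) encodes PD-L1, the ligand of the inhibitory receptor PD-1. It had 33.7, 35.0 and 35.8 CPM in Th1 KO, against 57.0, 53.7 and 51.8 CPM in Th1 WT, with a log2 fold change of -0.64 (SE 0.08, adjusted p = 1.66e-05). Sp100 (ENSMUSG00000026222, chromosome 1, 85649988 to 85709998, plus strand), a component of PML nuclear bodies, had 96.8, 88.6 and 101 CPM in Th1 KO, against 125, 134 and 134 CPM in Th1 WT (log2 fold change -0.46, SE 0.07, adjusted p = 0.000161). For both genes the KO libraries lay below the WT libraries with a gap wider than the spread inside either group.

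Nlrc5 (ENSMUSG00000074151, chromosome 8, 94434356 to 94527272, plus strand) is the transactivator of MHC class I genes, and Tap1 (ENSMUSG00000037321, chromosome 17, 34187553 to 34197225, plus strand) is a subunit of the peptide transporter that feeds MHC class I. Nlrc5 had 312, 319 and 325 CPM in Th1 KO, against 386, 390 and 392 CPM in Th1 WT (log2 fold change -0.29, SE 0.05, adjusted p = 0.00127). Tap1 had 330, 336 and 311 CPM in Th1 KO, against 406, 404 and 386 CPM in Th1 WT (log2 fold change -0.29, SE 0.07, adjusted p = 0.00872). Groups did not overlap for either gene. The Tap1 call was lost without Th1 KO library 3 (adjusted p = 0.0581) or without Th1 WT library 2 (adjusted p = 0.0578), in a range of 2.78e-05 to 0.0581 over all alternatives. Tap1 overlaps Psmb9 and Nlrc5 overlaps 9330175E14Rik, each on the opposite strand. The other 9 of these 10 genes passed under every alternative tried.

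Of the 4 further induced genes none passed in Th1 cells. Ifi44 had 1.32, 2.22 and 2.02 CPM in Th1 KO and 1.89, 4.47 and 5.13 CPM in Th1 WT, and its groups overlapped (log2 fold change -1.01, SE 0.40, adjusted p = 0.209). Ifi27l2a, a small protein of the ISG12 family, had 47.8, 61.4 and 89.2 CPM in Th1 KO and 82.0, 102 and 117 CPM in Th1 WT, with overlapping groups (log2 fold change -0.60, SE 0.22, adjusted p = 0.208). Ifi35 stood at -0.14, and Shisa5, a p53-induced protein of the endoplasmic reticulum, at -0.05.

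In Th17 cells 5 of the 37 genes were lower in KO than in WT, namely Usp18, Ifit2, Sp100, Tap1 and Nlrc5. They are 13.5% of the tested members, against 4.02% of all genes lower and 1.81% higher. All 5 were also among the 10 lower in Th1 KO. None was higher at an adjusted p under 0.05 in edgeR, and the count was also 0 with DESeq2 and limma-voom. Calls in the lower direction fell to 3 with DESeq2 and 2 with limma-voom. At an unadjusted p under 0.05, 4 were higher, against 7.2% of all genes, and 7 lower, against 9.99%. The median log2 fold change of the 37 genes was -0.07 and that of all genes 0.00, with 21 of the 37 below 0. The member median was 0.01 without Th17 KO library 1, -0.00 without Th17 WT library 2 and 0.01 without the 3 shallow libraries, so its direction rests on single libraries. Groups did not overlap with KO lower for 8 genes, against 9.59% of all genes, and with KO higher for 4 genes, against 8.94%. These 4 were Isg20, Oasl2, Oas1a and Rtp4. Fitted fold changes here weigh the deep libraries more than a mean of CPM does.

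Usp18 had 3.58, 2.10 and 6.22 CPM in Th17 KO, against 13.4, 16.6 and 15.6 CPM in Th17 WT, and the groups did not overlap. Shallow Th17 KO library 2 had 2 counts, under the floor of 3 counts, and shallow Th17 WT libraries 2 and 3 had 42 and 15. Its log2 fold change was -1.60 (SE 0.30, adjusted p = 0.00616), and the adjusted p ran from 2.62e-14 to 0.152 over the alternatives. The call was lost with limma-voom (adjusted p = 0.0509) and without the 3 shallow libraries (adjusted p = 0.152), a fit that leaves 1 Th17 WT library and assumes that it varies like the other groups. Nlrc5 had 244, 228 and 236 CPM in Th17 KO, against 310, 314 and 301 CPM in Th17 WT. Its libraries did not overlap, its log2 fold change was -0.38 (SE 0.06, adjusted p = 0.000116), and it passed under every alternative tried.

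The other 3 calls were less firm. Tap1 had 258, 229 and 251 CPM in Th17 KO, against 335, 300 and 267 CPM in Th17 WT (log2 fold change -0.30, SE 0.07, adjusted p = 0.012). It was lost without Th17 WT library 1 (adjusted p = 0.13) and with only the Th17 groups in the fit (adjusted p = 0.0705), in a range of 0.000313 to 0.13. Sp100 had 91.3, 108 and 100 CPM in Th17 KO, against 110, 127 and 134 CPM in Th17 WT (log2 fold change -0.30, SE 0.08, adjusted p = 0.032). Its groups were separated by a narrow gap, and its call was lost under 8 alternatives. Without Th17 KO library 1 or 3 or Th17 WT library 2 or 3 its adjusted p was 0.221, 0.0604, 0.148 and 0.0867 in that order, within a range of 0.00383 to 0.285 over the alternatives. Ifit2 had 11.2, 14.7 and 14.4 CPM in Th17 KO, against 16.4, 19.8 and 24.9 CPM in Th17 WT (log2 fold change -0.49, SE 0.14, adjusted p = 0.0422). The Ifit2 call did not hold without Th1 KO library 2, any Th1 WT library, Th17 KO library 1 or Th17 WT library 2 or 3. The adjusted p was then between 0.0511 and 0.331. It was lost, too, with DESeq2 (adjusted p = 0.0886), with limma-voom (0.0833) and with only the Th17 groups in the fit (0.141). Over the alternatives the Ifit2 range was 0.00382 to 0.331.

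**Figure D2:**
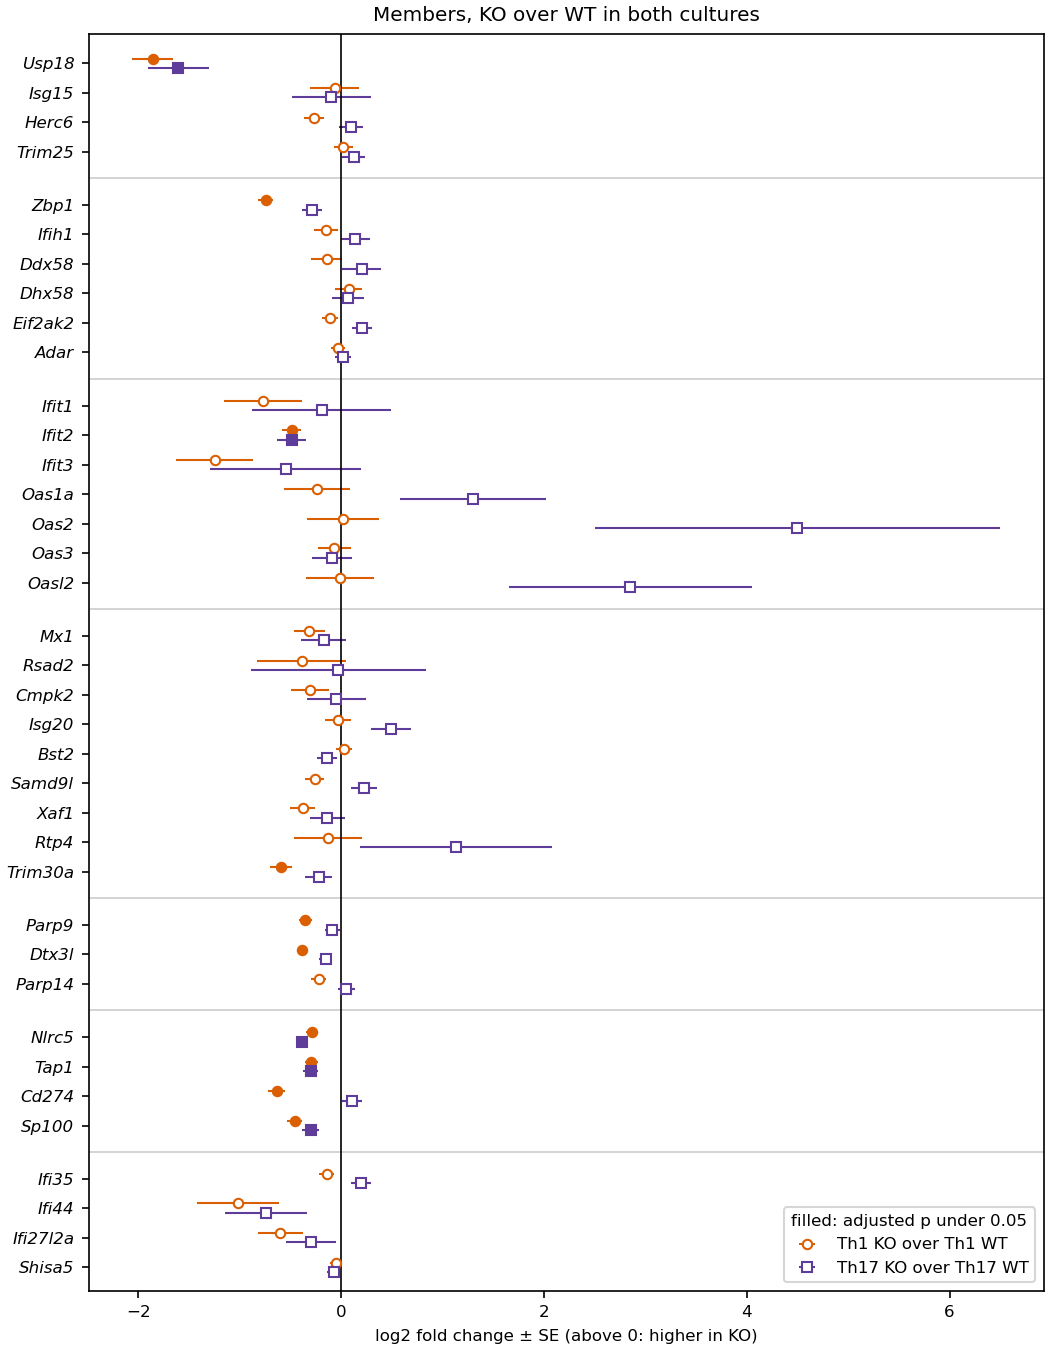
Genotype differences of the 37 tested genes, grouped by role from the ISG15 system at the top to further induced genes at the bottom. The horizontal axis is the log2 fold change of KO over WT with its SE, circles are Th1 and squares Th17, and filled symbols have an adjusted p under 0.05. All 10 filled circles and all 5 filled squares lie left of 0.

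Genes called in Th1 but not in Th17 had smaller or opposite values in Th17. Zbp1 had 31.7, 32.6 and 32.8 CPM in Th17 KO and 36.9, 43.9 and 41.5 CPM in Th17 WT. Its groups did not overlap, but it did not pass (log2 fold change -0.28, SE 0.10, adjusted p = 0.091). Trim30a stood at -0.22 (SE 0.13), Dtx3l at -0.15 (SE 0.07) and Parp9 at -0.09 (SE 0.07). Cd274 had 66.7, 48.3 and 60.4 CPM in Th17 KO and 63.0, 51.4 and 46.7 CPM in Th17 WT, which overlapped (log2 fold change 0.11, SE 0.10).

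Several OAS genes and Rtp4, a chaperone of membrane receptors, were near the detection limit in Th17 cells. Oas2 had 7 counts over the 3 Th17 KO libraries and 0 over the 3 Th17 WT libraries. With the WT total set at the floor of 3 counts over the group, KO over WT was 1.39. This value leaves out the counting error of the 7 KO counts, so it is not a lower limit. Oasl2 had 14 counts in Th17 KO and 1 in Th17 WT, a ratio of 8.33 with a 95% counting interval of 1.27 to 352. Such intervals cover counting error only. Oas1a had 0.857, 2.10 and 2.35 CPM in Th17 KO and 0.763, 0.396 and 0 CPM in Th17 WT, and Rtp4 had 0.701, 1.05 and 1.34 CPM in Th17 KO and 0.508, 0.396 and 0 CPM in Th17 WT. None of these passed. A floor of 3 counts is 3.15 CPM in shallow Th17 KO library 2 and 1.19 and 3.11 CPM in shallow Th17 WT libraries 2 and 3, so at this depth a difference in these genes was not detectable there. Markers also moved with the Th17 genotype. Of the 6 CD4 T cell markers, whose sums given above did not overlap, 2 were lower in Th17 KO (33.3%, against 4.02% of all genes). The 5 B cell markers summed to 2.10 to 4.79 CPM in Th17 KO and 0.763 to 1.58 CPM in Th17 WT, with Ms4a1 at 0 in Th17 WT. Mitochondrial shares were taken of the counts without the gene ID that dominates the shallow libraries. They were 19.0% to 20.8% in Th17 KO and 16.9% to 18.6% in Th17 WT, and shares of all counts were not compared. The Th17 cell markers Il17a, Il17f and Ccr6 summed to 14.7 to 23.7 CPM in Th17 KO and 2.08 to 6.52 CPM in Th17 WT. Those of Th1 cells (Tbx21, Ifng and Cxcr3) summed to 120 to 152 CPM in Th17 KO and 262 to 353 CPM in Th17 WT. The log2 fold changes of these 3 Th1 markers ran from -1.66 to 0.22, and 1 passed, lower in KO. The part of these markers and transcripts in the result was not tested.

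The difference between the genotype differences was tested with the interaction term, as Th17 minus Th1. Cd274 passed, as 1 of 37 genes, with a log2 difference of 0.74 (SE 0.13, adjusted p = 0.00262, between 2.11e-07 and 0.0139 over the alternatives). Of all genes 0.115% passed above 0 and 0.476% below 0. Among the members 0 passed below 0, in edgeR as in DESeq2 and limma-voom, and at an unadjusted p under 0.05 13 were above 0, against 4.14% of all genes, and 0 below, against 5.61%. The 3 next smallest p-values belonged to Zbp1 (0.46, SE 0.12, adjusted p = 0.0797), Samd9l (0.49, SE 0.16, adjusted p = 0.225) and Ifi35 (0.34, SE 0.12, adjusted p = 0.296). Zbp1 and Samd9l, a translation repressor in infected cells, passed without the filter on low counts. Samd9l also passed without Th17 KO library 1 (adjusted p = 0.0442), in a range of 0.0105 to 0.583. In all, 30 of the 37 genes had a positive interaction value, and for those other than Cd274 a difference between cultures did not pass in the edgeR fit. The Th1 groups and the Th17 groups enter this term together, so it is not independent of the values above.

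Between Th17 and Th1 cells 22 of the 37 genes passed in KO (59.5%), against 6534 of all 12189 genes. In WT 21 passed (56.8%), against 5738 of all genes. In at least 1 genotype 27 of the 37 passed. How many of all genes passed in either or in both genotypes was not counted. In KO cells 11 genes were higher in Th17 (29.7%), against 26.9% of all genes, and 11 were lower (29.7%), against 26.7%, so these shares were near the background. In WT cells 5 were higher (13.5%), against 23.5% of all genes, and 16 were lower (43.2%), against 23.6%. The comparisons in KO and in WT use separate libraries, but each shares its libraries with the genotype comparisons above. The median log2 fold change was -0.22 in KO and -0.33 in WT, with all genes at 0.00 and -0.01. Single libraries moved these medians: the KO median was 0.01 without Th17 KO library 1 and -0.10 without Th1 KO library 3, and the WT median was -0.17 without Th17 WT library 1. Setting genes at 0 counts to their value at the floor left both the same. Higher in both genotypes were Ifih1, Dhx58, Bst2, Ifi44 and Shisa5. Lower in both were 11 genes: Zbp1, Isg20, Ifit2, Oasl2, Oas1a, Oas2, Rtp4, Ifi35, Samd9l, Tap1 and Nlrc5. In KO 3 of these calls were lost with DESeq2 and without single libraries. Zbp1 was lost without Th1 KO library 3 or Th17 KO library 1 (adjusted p up to 0.112), and Samd9l without these or Th1 KO library 1 (up to 0.255). Oas1a was lost without Th1 KO library 2 or 3, Th17 KO library 1 or 2 or Th17 WT library 2 (up to 0.298).

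The IFIT and OAS families held the largest differences. Oas2 had 0 counts over the Th17 WT libraries and 64 over the Th1 WT libraries. Th1 over Th17 was 7.97 with the same floor, which again is not a lower limit. Oasl2 had 1 count in Th17 WT and 80 in Th1 WT, and Th1 over Th17 gave 29.9 with a 95% counting interval of 5.21 to 1194. In KO cells the log2 fold change of Th17 over Th1 was -2.49 (SE 0.57) for Oas2 and -1.80 (SE 0.48) for Oasl2. Oas1a had -1.10 (SE 0.43) in KO and -2.64 (SE 0.59) in WT, and Ifit2 had -1.02 (SE 0.12) in both. Ifit1 and Ifit3 did not pass in KO, with -1.02 (SE 0.51) and -0.94 (SE 0.57), and were lower in WT, with -1.60 (SE 0.55) and -1.65 (SE 0.54). The WT call of Ifit1 was lost under 9 alternatives and that of Ifit3 under 4, and Ifit1 passed in KO under 3. Oas3 was unlike the others of these families. It had 80.4, 90.3 and 86.8 CPM in Th17 KO and 86.1, 93.7 and 92.4 CPM in Th17 WT. In Th1 KO it had 71.4, 76.5 and 104 CPM and in Th1 WT 73.7, 81.3 and 108 CPM. All its groups overlapped. Oasl1, which had too few counts for a test, had 2 counts in Th17 KO and 23 in Th1 KO, and 1 count in Th17 WT and 40 in Th1 WT. Th1 over Th17 was 7.91 in KO (95% counting interval 1.96 to 69.2) and 14.9 in WT (2.53 to 604).

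Of the 9 other effectors 3 were lower and 1 higher in Th17 KO than in Th1 KO, against 26.7% and 26.9% of all genes. In Th17 WT 5 were lower and 1 higher than in Th1 WT, against 23.6% and 23.5%. Rtp4 had a log2 fold change of -2.14 (SE 0.50) in KO and -3.41 (SE 0.69) in WT, and the exonuclease Isg20 had -0.61 (SE 0.15) in KO and -1.13 (SE 0.18) in WT. Isg20 had 12.5, 13.7 and 16.1 CPM in Th17 KO and 20.3, 19.3 and 25.5 CPM in Th1 KO, against 9.91, 10.3 and 11.4 CPM in Th17 WT and 18, 22.6 and 25.8 CPM in Th1 WT. In both genotypes every Th17 library lay below every Th1 library. Outside the effectors, Ifi35 was at -0.41 (SE 0.08) in KO and Nlrc5 at -0.43 (SE 0.06). Usp18, Xaf1 and Cmpk2, a mitochondrial nucleotide kinase, did not pass in KO, at -0.69, -0.22 and -0.48, and were lower in WT, at -0.94 (SE 0.23), -0.47 (SE 0.15) and -0.74 (SE 0.25). In KO Usp18 passed under 7 alternatives, and in WT the Cmpk2 call was lost under 5. Without Th17 WT library 1, the only deep one of its group, the count in WT was 13, and Usp18, Ifit1, Ifit3, Cmpk2, Xaf1, Rtp4, Dhx58 and Ifi44 no longer passed.

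Of the 3 RNA helicases Ifih1 and Dhx58 were higher in Th17 cells, and Ddx58 did not pass (log2 fold change 0.30, SE 0.17, in KO and -0.05, SE 0.18, in WT). Ifih1 had 38.5, 26.3 and 43.7 CPM in Th17 KO and 18.9, 21.7 and 23.3 CPM in Th1 KO, and 33.6, 40.7 and 37.4 CPM in Th17 WT and 20.4, 22.6 and 27.9 CPM in Th1 WT. Within each genotype every Th17 library was above every Th1 library (log2 fold change 0.89, SE 0.13, in KO and 0.60, SE 0.14, in WT). Dhx58 was higher by 0.72 in both genotypes (SE 0.14 in KO and 0.15 in WT). Bst2 rose by 0.36 (SE 0.09) in KO and 0.52 (SE 0.09) in WT. Shisa5, the most abundant of the genes in CPM, had 798, 859 and 859 CPM in Th17 KO and 531, 547 and 544 CPM in Th1 KO, and 823, 939 and 887 CPM in Th17 WT and 549, 576 and 552 CPM in Th1 WT. Its groups were far apart, with a log2 fold change of 0.63 (SE 0.06) in KO and 0.66 (SE 0.06) in WT. Ifi44 was higher by 1.49 (SE 0.42) in KO and 1.22 (SE 0.38) in WT, and its KO call was lost without Th17 KO library 3 (adjusted p = 0.0747).

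In KO cells 6 further genes were higher in Th17 than in Th1. Cd274 had 66.7, 48.3 and 60.4 CPM in Th17 KO, against 33.7, 35.0 and 35.8 CPM in Th1 KO, with no overlap (log2 fold change 0.83, SE 0.09, adjusted p = 1.28e-08). In WT cells its log2 fold change of Th17 over Th1 was 0.09 (SE 0.09, adjusted p = 0.464), and the interaction term given above is the test of that contrast. Ifi27l2a was at 0.82 (SE 0.23), Herc6 at 0.59 (SE 0.10), Eif2ak2 at 0.43 (SE 0.08), Parp9 at 0.35 (SE 0.07) and Trim25 at 0.27 (SE 0.10) in KO, and none of these 5 passed in WT. The Ifi27l2a call was lost without Th1 KO library 2 or Th17 KO library 3, with only the KO groups in the fit and without the 3 shallow libraries (adjusted p between 0.0515 and 0.0791). The Trim25 call was lost with DESeq2, without Th1 KO library 1 or 2 or Th17 KO library 3 and without the shallow libraries (adjusted p between 0.0538 and 0.102). Whether the values of these 5 differ between genotypes was tested by the same interaction term, which none of them passed.

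**Figure D3:**
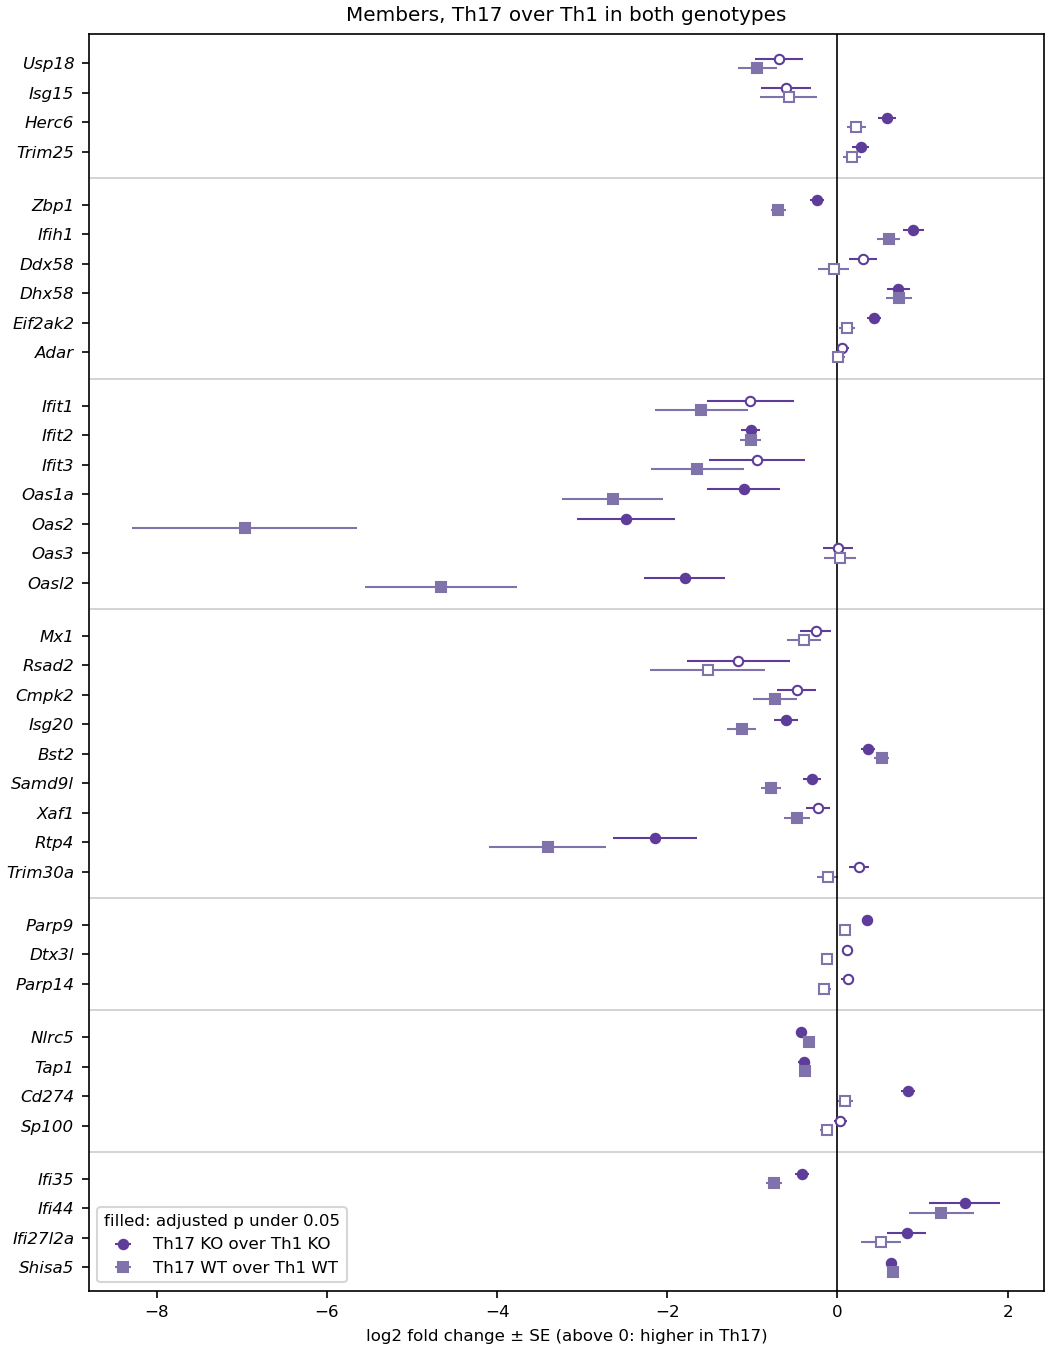
Culture differences of the 37 tested genes in the same order by role. The horizontal axis is the log2 fold change of Th17 over Th1 with its SE, circles are KO and squares WT, and filled symbols have an adjusted p under 0.05. Oas2 and Oasl2 in WT lie furthest left because Th17 WT had 0 and 1 counts, and their plotted values depend on the prior count of the fit.

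Levels between genes were compared as CPM per kilobase of exon. Ifi27l2a and Shisa5 led in every group, with 252 and 254 in Th17 KO, 312 and 268 in Th17 WT, 143 and 164 in Th1 KO, and 217 and 170 in Th1 WT. Tap1 came after them with 44.9 in Th17 KO, 54.9 in Th17 WT, 59.5 in Th1 KO and 72.8 in Th1 WT. Isg15 and Mx1, widely used markers of the response, were low. Isg15 had 3.30 in Th17 KO, 3.38 in Th17 WT, 4.39 in Th1 KO and 4.61 in Th1 WT. Mx1 had 2.32 in Th17 KO, 2.64 in Th17 WT, 2.79 in Th1 KO and 3.48 in Th1 WT. Oasl1, Oasl2 and Oas2 were at or under 0.372 in every group. The mean was under 5 CPM in every group for 8 of the 38 genes.

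Libraries of a group differed along these genes as a set. Th1 KO library 3 was the highest of its group for 32 of the 37 genes, against 33.4% of all genes, and Th1 WT library 3 for 27, against 34.9%. Th1 KO library 1 was the lowest of its group for 28 genes, against 34.1% of all genes, and Th1 WT library 1 for 29, against 36.2%. The median deviation from the group mean on the log2 CPM scale was 0.14 in Th1 KO library 3 and 0.11 in Th1 WT library 3, and -0.12 in Th1 KO library 1 and -0.11 in Th1 WT library 1. Th17 KO library 3 was the highest of its group for 20 genes, against 28.7% of all genes. These deviations compare with the median KO difference of -0.27 in Th1. Rtp4, at 2.55, 3.13 and 7.83 CPM in Th1 KO, is an example of a wide spread.

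**Figure D4:**
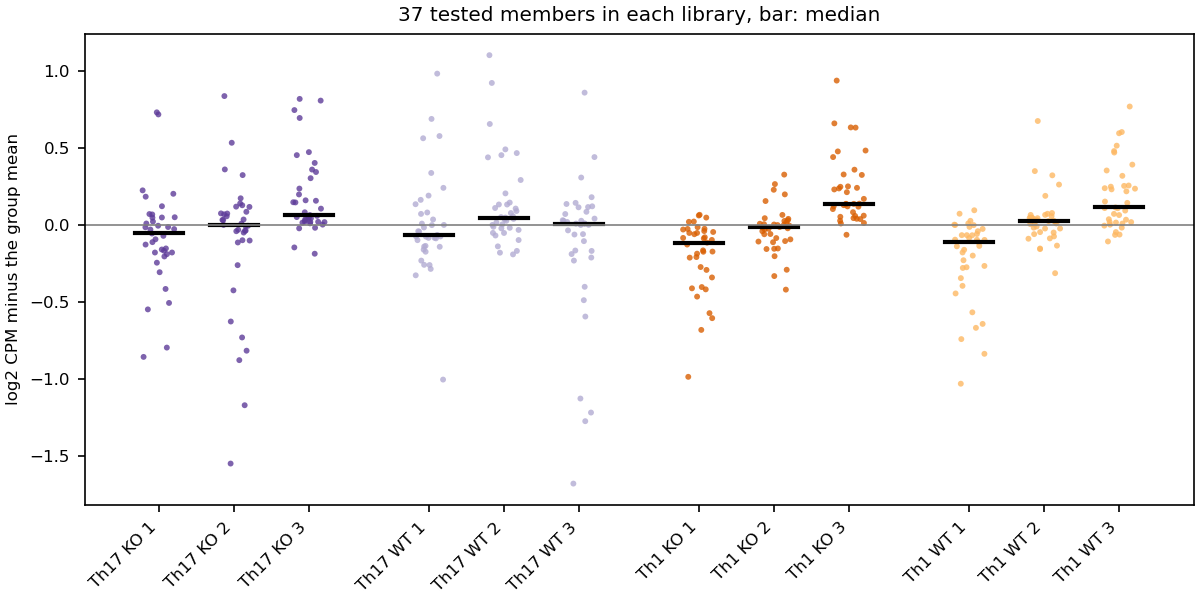
Deviation of the 37 tested genes from their group mean in each of the 12 libraries. The vertical axis is log2 CPM minus the mean of the group, each point is 1 gene, and the bar is the median. Th1 KO library 3 and Th1 WT library 3 have medians of 0.14 and 0.11, and Th1 KO library 1 and Th1 WT library 1 have medians of -0.12 and -0.11.

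Upstream of these genes, interferon gamma was the sole ligand of 10 listed with enough counts for a test, while Ifnb1, Ifna1, Ifna2, Ifna4, Ifna5, Ifnk, Ifne, Ifnl2 and Ifnl3 had at most 2 counts each over all libraries. Ifng had 784, 547 and 611 CPM in Th1 KO and 929, 657 and 658 CPM in Th1 WT, with overlapping groups (log2 fold change -0.21, SE 0.20, adjusted p = 0.703). In Th17 cells KO libraries were lower, with 59.3, 38.9 and 66.9 CPM in Th17 KO against 174, 178 and 233 CPM in Th17 WT (log2 fold change -1.66, SE 0.24, adjusted p = 0.00566). That call was lost without the 3 shallow libraries (adjusted p = 0.114, the top of a range from 1.32e-19).

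Of 16 tested receptors and signal transducers 2 were lower (12.5%) and 1 higher (6.25%) in Th1 KO, against 2.92% and 1.69% of all genes. Their median log2 fold change was -0.16. Socs3, a feedback inhibitor of JAK kinases, had 56.1, 56.1 and 46.4 CPM in Th1 KO, against 71.8, 72 and 73.6 CPM in Th1 WT. Its groups were far apart (log2 fold change -0.46, SE 0.07, adjusted p = 0.000329). Irf9 was at -0.20 (SE 0.06, adjusted p = 0.0408), which was lost without each Th1 library in turn (adjusted p between 0.071 and 0.186). Ifngr2 was higher at 2.45 (SE 0.55, adjusted p = 0.00777) but had at most 1.45 CPM in Th1. Without Th1 KO library 3 Ifngr2 was lost (adjusted p = 0.0615, the top of a range from 0.000209). In Th17 KO 3 of the 16 were lower (18.8%, against 4.02% of all genes), with a median of -0.13. Ifngr1, a chain of the interferon gamma receptor, had 233, 203 and 193 CPM in Th17 KO, against 338, 322 and 304 CPM in Th17 WT, with no overlap (log2 fold change -0.62, SE 0.07, adjusted p = 3.77e-06). Socs3 was at -0.36 (SE 0.09) and Jak1 at -0.27 (SE 0.08). Socs3 was lost without Th17 KO library 3 (adjusted p = 0.126) or Th17 WT library 1 (adjusted p = 0.123). Jak1 was lost without Th1 KO library 2 or any Th1 WT, any Th17 KO or either shallow Th17 WT library (adjusted p between 0.0551 and 0.247). The interaction value of Ifngr1 was -0.47 (SE 0.10, adjusted p = 0.022). It was lost without Th17 KO library 3 (adjusted p = 0.102) and without the 3 shallow libraries (adjusted p = 0.072). It was lost, too, without Th1 KO library 1 or 2, Th1 WT library 1 or 3 or Th17 WT library 1 (adjusted p between 0.0508 and 0.0723), and the whole range was 3.43e-05 to 0.102.

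Among 10 tested sensing adaptors and kinases 1 was lower in Th1 KO (10%) and 3 in Th17 KO (30%), against 2.92% and 4.02% of all genes. The median log2 fold changes were -0.10 and -0.08. Samhd1, a nucleotide hydrolase, was lower in both cultures (log2 fold change -0.26, SE 0.06, in Th1 and -0.34, SE 0.07, in Th17). Its Th1 call was lost without Th1 KO library 1 or 2 or Th1 WT library 2 or 3 (adjusted p between 0.0623 and 0.0884). Myd88, an adaptor of Toll-like receptors, and Tlr7, a receptor for single-stranded RNA, were lower in Th17 KO (-0.34, SE 0.09, and -1.97, SE 0.57). Myd88 was lost without Th17 WT library 2 or 3, and Tlr7 without any Th17 KO library or Th17 WT library 2 (adjusted p between 0.0504 and 0.184). In the interaction Mavs, the adaptor of the RNA helicases, had the smallest p of this list (-0.39, SE 0.17, adjusted p = 0.46). Of 41 tested interferon-stimulated genes outside the 38, 10 were lower (24.4%) and 2 higher (4.88%) in Th1 KO, against 2.92% and 1.69% of all genes. Their median log2 fold change was -0.17. The smallest p-values belonged to Sp140 (-0.48, SE 0.08), Trim30d (-0.76, SE 0.14), Ifit1bl1 (-0.83, SE 0.17) and Gm4951 (-0.98, SE 0.18). In Th17 KO 3 were lower (7.32%, against 4.02% of all genes), with a list median of -0.09. These were Pml, the core of PML nuclear bodies (-0.28), Ifitm3, which blocks viral entry (-0.32), and Gm4951 (-1.73). Each of these 3 was lost without at least 1 library: Pml without Th17 KO library 3 or Th17 WT library 2, Ifitm3 without Th17 KO library 1 or 2 or Th17 WT library 2 or 3, and Gm4951 without Th1 WT library 3, Th17 KO library 1 or 3 or Th17 WT library 1 or 3. The adjusted p then lay between 0.0503 and 0.545. Sp140, a nuclear body protein of the Sp100 family, had 67.6, 75.6 and 69.5 CPM in Th17 KO, 62.7, 70.0 and 67.5 CPM in Th17 WT, 29.2, 26.2 and 25.8 CPM in Th1 KO and 41.0, 34.7 and 36.9 CPM in Th1 WT. The genotypes were apart in Th1 and overlapped in Th17, with an interaction value of 0.56 (SE 0.12, adjusted p = 0.0196). It was lost with DESeq2, with limma-voom, without the 3 shallow libraries and without Th1 KO library 2 or 3, Th1 WT library 1, Th17 KO library 3 or Th17 WT library 1. The adjusted p then lay between 0.0554 and 0.122, with the whole range from 0.000263. Of the 14 antigen presentation genes 4 were lower in Th1 KO (28.6%, against 2.92% of all genes). These were Psmb10 (-0.37, SE 0.07), B2m (-0.29, SE 0.06), Tapbp (-0.24, SE 0.06) and Psme2 (-0.23, SE 0.07). The list median was -0.18. Single libraries decided the calls of B2m (lost without Th1 WT library 2), Tapbp (any Th1 KO library or Th1 WT library 2) and Psme2 (Th1 KO library 1 or 2 or any Th1 WT library), with adjusted p between 0.0512 and 0.198. In Th17 KO 1 was lower (7.14%, against 4.02% of all genes), with a list median of -0.09. It was the MHC class I gene H2-D1 (-0.27, SE 0.07, adjusted p = 0.0169). The H2-D1 call was lost without Th17 KO library 1 or 3 or Th17 WT library 1 (adjusted p up to 0.0922). In the interaction Psmb10 had the smallest p of this list (0.35, SE 0.11, adjusted p = 0.166).

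Of the genes lower in KO, Usp18, Zbp1, Parp9 and Nlrc5 had no window and could not be searched for the ISRE letters. Among all listed genes 12 of the 28 with a window held a match. In Th1 KO 1 of the 12 genes with an ISRE match in their window was lower, Trim30a, and 5 of the 15 tested genes with a window but no match were lower: Ifit2, Dtx3l, Sp100, Cd274 and Tap1. The median log2 fold change was -0.14 in the genes with a match and -0.29 in those without. In Th17 KO 0 of the 12 and 3 of the 15 were lower. These counts are a description over few genes, and no difference between the 2 sets was tested.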

How the data were processed

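RNA from 12 sorted CD4 T cell samples was made into libraries with a template-switching kit that selects poly-A RNA and does not mark strand, per the labels' protocols. The submitters' processing notes name TopHat2, Bowtie2, featureCounts and the builds GRCm38 and mm10. Not given in the sources used here are versions, strand settings, treatment of multi-mapping reads and the annotation release. Raw counts for each Ensembl gene ID are what the authors deposited, and these had not been normalised. Symbols, coordinates and exon lengths came from GENCODE M21 on GRCm38, which named 37693 of 39179 IDs. No 2 libraries held identical values.

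Counts were tested with edgeR 4.0.16 in R 4.3.3 by the quasi-likelihood F-test with robust fitting, TMM normalisation and 1 coefficient for each of the 4 groups in a single fit over all 12 libraries. Genes were kept by filterByExpr with a minimum count of 10, which left 12189. P-values were adjusted by Benjamini-Hochberg over all 12189 genes within a comparison, and a gene passed at an adjusted p under 0.05. Two-sided tests compared KO with WT in each culture, Th17 with Th1 in each genotype, and the 2 genotype differences with each other. SE is the absolute log2 fold change divided by the square root of F. The fit was tested on simulated data with 200 changed genes. It recovered 85.1% of genes changed 2-fold in Th1 and 71.6% in Th17. At 1.5-fold it recovered 73.1% in Th1 and 62.7% in Th17, and smaller changes were not simulated. Of the calls in that simulation 9.57% were false in Th1 and 7.50% in Th17, both above the 0.05 used as the threshold.

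Levels on the log2 CPM scale used a prior count of 2. Alternatives were RLE size factors, DESeq2 1.42.0, limma-voom with sample weights (limma 3.58.1), no filter on low counts, only the groups compared, each library left out, the 3 shallow libraries left out, the dominant gene ID left out, and a replicate block by library code. Motifs were searched in RefSeq promoter windows with Python 3.11.15 and pandas 2.3.3.

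The member genes, the pathway and marker lists, the motifs and the tests were chosen with earlier results of these data known. All members were accounted for. Every member past the threshold between genotypes or in the interaction was named, or the 4 of smallest p where fewer than 4 passed. Between cultures up to 8 called members of the largest log2 fold change in each direction were named, and of each pathway list up to 4 genes of smallest p, in the genotype comparisons and the interaction only. Of the pathway and marker lists 2 genes are not reported here. The sensing list held 14 symbols, of which 13 were found in the files. Counting intervals are exact and cover counting error only.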

Additional observations from a re-analysis of the deposited data

Results flagged for a closer look

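For 3 genes the KO difference in Th17 cells and the KO difference in Th1 cells were themselves different in edgeR's quasi-likelihood test of the interaction (adjusted p under 0.05). Cd274 had an interaction value of 0.74 on the log2 scale, with a KO difference of 0.11 in Th17 and -0.64 in Th1, and its call held under every alternative tried. Sp140 had 0.56, with 0.08 in Th17 and -0.48 in Th1. Ifngr1 had -0.47, with -0.62 in Th17 and -0.15 in Th1. The calls of Sp140 and Ifngr1 were lost without Th17 KO library 3 and without the 3 shallow libraries. Groups of 3 libraries were too small for a search for single outlying libraries.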

How the results depend on the processing

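No result that passed was reversed under any alternative tried. In Th1 562 genes passed between genotypes, and the count was 317 with DESeq2, 1074 with limma-voom, 941 with only the Th1 groups and between 261 and 680 with 1 library left out, lowest without Th1 WT library 2. Of the member genes 10 passed, and 9 to 12 with 1 library left out. In Th17 711 genes passed, and the count was 463 with limma-voom, 395 with only the Th17 groups, 312 without the 3 shallow libraries and between 411 and 708 with 1 library left out, lowest without Th17 WT library 2. Of the member genes 5 passed, 3 with DESeq2, 2 with limma-voom, with only the Th17 groups or without the shallow libraries, and 3 to 5 with 1 library left out, 3 without Th17 KO library 1 or Th17 WT library 2 or 3. Between Th17 WT and Th1 WT 21 member genes passed, and 13 to 23 with 1 library left out. In all, 5738 genes passed there (4175 to 5839 with 1 library left out), and 6534 between Th17 KO and Th1 KO (5518 to 6635). In the interaction 72 genes passed, 207 without the filter on low counts, and 38 to 108 with 1 library left out. Of the member genes 1 passed, 3 without that filter, and 1 to 2 with 1 library left out. The causes of these changes were not tested, beyond the fewer libraries in those fits. Library codes gave a possible pairing of KO and WT, but the deviations of same-numbered libraries had correlations of 0.14, 0.029 and 0.17 in Th1 and 0.23, 0.026 and -0.062 in Th17, and 9 of 12 libraries correlated best with their own number, a hint from the data and not from the design. With this replicate block 1315 genes and 18 member genes passed in Th1, 1117 and 7 in Th17, and 329 and 4 in the interaction. The block added Ifit1, Ifit3, Xaf1, Parp14, Ifi44, Ifi27l2a, Samd9l and Herc6 to the member calls in Th1, Ifi44 and Ifi27l2a in Th17, and Zbp1, Trim30a and Samd9l in the interaction. With the longer ISRE letters 9 windows matched, against 12. Depth limits the 3 shallow Th17 libraries, where 3 counts are 1.19 to 3.15 CPM.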
